A study of Rattus norvegicus with 8 samples.

Results

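The genes of the cytosolic ribosomal proteins, the protein components of the ribosomes that translate the messages of the cell nucleus, were followed in RNA of rat hippocampal neurons separated into cell bodies and neuronal processes. They were taken by symbol from the deposited gene counts, as Rpl or Rps followed by a number, an optional letter a, x, y or l and an optional further number, together with Rplp0, Rplp2 and Rpsa. The kinases named Rps6k and symbols annotated as anything but protein-coding were left out. This gave 83 of 28909 symbols, 50 for the large and 33 for the small ribosomal subunit, of which 75 were annotated as protein-coding, while Rps14, Rps19 and the 6 members too low to be tested had no class in the annotation used and were kept.

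Each ribosome carries most of these proteins in a single copy, and cells make them in matched amounts. Their messages are short and abundant, and many begin with a C followed by an uninterrupted run of pyrimidines, the 5' terminal oligopyrimidine (TOP) motif, through which the mTOR pathway and the protein LARP1 control how strongly they are translated. In neurons, messages of ribosomal proteins are known to be present in axons and dendrites as well as in cell bodies.

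Primary hippocampal neurons of Sprague-Dawley rat embryos were grown on porous inserts, so that cell bodies stayed above the membrane and processes could grow through its pores. Cultures were given picrotoxin (PTX), a blocker of GABA-A receptors, or vehicle (control) for 48 h from day 18 to day 20 in vitro. Total RNA of each compartment was depleted of ribosomal RNA and sequenced, with 2 libraries in each of 4 conditions: somata control, somata PTX, processes control and processes PTX. The libraries held 12290890 to 18455662 counts, of which 74053 to 111878 fell on the 83 genes. The labels give replicate numbers but do not say that replicates came from separate preparations, so p-values measure the spread between these libraries, which may be technical.

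The filter asked for more than 20 reads in at least 2 libraries and left 77 of the 83 genes, 46 of the large and 31 of the small subunit, among 14309 tested genes. Of these, 74 passed it within somata and within processes separately, Rpl38 only through processes, Rpl10l only through somata and Rps20 with 1 library of each. At least 100 reads were counted in every library for 68 of the tested members. No reads were counted in any library for Rpl10a, a large subunit protein at the exit of the transfer RNAs, or for Rpl23a, which lies at the exit of the peptide tunnel. Rplp1, Rpl22, Rps7, Rps13 and Rps26 were not analysed here, so sums over the members and the ratio of the subunits are without them.

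The first question was how these messages were distributed between cell bodies and processes. Summed over the 83 genes, they made up 0.776% and 0.894% of the counts outside the mitochondrial genome in somata control and 0.817% and 0.899% in somata PTX. In processes they made up 2.13% and 2.05% in control and 2.27% and 2.04% in PTX cultures. All 4 process libraries lay above all 4 somata libraries, while control and PTX libraries of the same compartment overlapped. The means were 0.835% ± 0.0833 (SD, n = 2) in somata control and 2.09% ± 0.0578 (SD, n = 2) in processes control. The summed level was 3396 ± 351 CPM (SD, n = 2) in somata control and 11661 ± 522 CPM (SD, n = 2) in processes control, where CPM is counts per 1000000 of library size after TMM scaling, which assumes that most genes do not differ. In bulk RNA, a change in the number of cells of a type and a change in RNA per cell cannot be told apart.

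**Figure D1:**
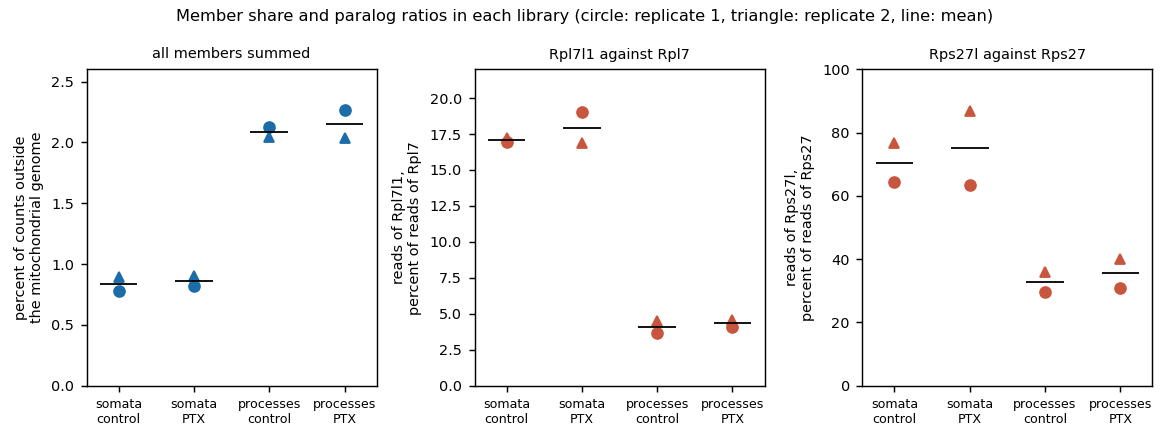
Each point is a library (circles replicate 1, triangles replicate 2) and each line the mean of a condition; the left panel gives the summed members in percent of counts outside the mitochondrial genome, the other panels the reads of Rpl7l1 and of Rps27l in percent of the reads of Rpl7 and of Rps27. The summed share lay between 0.776% and 0.899% in somata and between 2.04% and 2.27% in processes, and both ratios were lower in every process library than in every somata library.

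In control cultures 74 of the 77 tested members were higher in processes than in somata at an adjusted p under 0.05 in edgeR's quasi-likelihood test, against 25.8% of all tested genes. A single member was lower, against 21.9% of all tested genes, and 73 were higher by a log2 fold change over 1, against 11.6%. In PTX cultures 75 members were higher (25.7% of all tested genes), 1 was lower (24% of all tested genes), and 73 were higher by a log2 fold change over 1 (11.4%). The PTX libraries are different ones, but they were fitted together with the control libraries, and same-numbered libraries deviated together. All 4 process libraries lay above all 4 somata libraries for 75 members, against 26.2% of tested genes, and below them for 1 member, against 25.1%. The median log2 fold change of the tested members was 1.71 in control and 1.70 in PTX cultures, with -0.05 for all tested genes in both.

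These directions are relative to the other genes and rest on the scaling. Outside the mitochondrial genome, 9517542 to 11227599 of 12290890 to 14520831 counts remained in somata, and 4702054 to 5491237 of 15120334 to 18455662 in process libraries. Library size includes the counts of the mitochondrial genome. The members made up between 0.569% and 0.696% of all counts in every one of the 8 libraries. Scaled by library size alone, 8 members were higher and 19 lower in processes of control cultures, and 9 higher and 20 lower in PTX cultures, where of all 14309 tested genes 191 were higher and 13271 lower in control and 181 higher and 13318 lower in PTX cultures. At that scaling the median of all tested genes moved to -1.86 in control and -1.87 in PTX cultures. The median of the members moved along to -0.10 and -0.13, which left it 1.76 and 1.75 above the median of all genes, against 1.76 and 1.75 with TMM.

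The largest difference in favour of processes was that of Rps29, a small zinc-binding protein of the small subunit. It was measured at 0.850 and 1.25 CPM in somata and 8.59 and 7.16 CPM in processes of control cultures, and 1.08 and 1.48 CPM in somata and 9.19 and 8.65 CPM in processes of PTX cultures. Processes lay above somata without overlap, with a log2 fold change of 2.89 (SE 0.269, quasi-likelihood adjusted p = 1.10e-05) in control cultures. Its counts were low, with 20 and 32 reads in somata control, 30 and 35 in somata PTX, 77 and 61 in processes control and 80 and 86 in processes PTX. Rpl37a, another zinc-binding protein, this one of the large subunit, was measured at 36.7 and 45.8 CPM in somata and 256 and 267 CPM in processes of control cultures, and 44.7 and 42.1 CPM in somata and 278 and 289 CPM in processes of PTX cultures. The difference was again far outside the spread of the replicates, with a log2 fold change of 2.66 (SE 0.130, quasi-likelihood adjusted p = 5.13e-07) in control and 2.71 (SE 0.130, quasi-likelihood adjusted p = 4.72e-07) in PTX cultures.

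Rpl41, the shortest protein of the ribosome, had 93.5 and 112 CPM in somata and 589 and 561 CPM in processes of control cultures, and 107 and 122 CPM in somata and 629.6 and 576 CPM in processes of PTX cultures. Its log2 fold change in control cultures was 2.49 (SE 0.136, quasi-likelihood adjusted p = 6.93e-07). Rpsa, a small subunit protein that is also known as the laminin receptor, had 153 and 182 CPM in somata and 952 and 810.2 CPM in processes of control cultures, and 145 and 164 CPM in somata and 915 and 793 CPM in processes of PTX cultures. All process libraries exceeded all somata libraries, and the log2 fold change was 2.39 (SE 0.150, quasi-likelihood adjusted p = 1.08e-06). For Rps2, at the entry of the messenger RNA into the small subunit, the values were 65.1 and 74.5 CPM in somata against 405 and 315 CPM in processes in control cultures, with a log2 fold change of 2.37 (SE 0.158, quasi-likelihood adjusted p = 1.46e-06). Rpl38, a large subunit protein known from the mouse for its part in translating Hox messages, reached 2.27 (SE 0.442, quasi-likelihood adjusted p = 0.00177) from low counts, 8 and 8 reads in somata control, 11 and 11 in somata PTX, 17 and 11 in processes control and 26 and 23 in processes PTX. It passed the filter through the 2 processes PTX libraries alone, which favours a higher value there, and scaled by library size alone it was at 0.47 in control cultures and not called (quasi-likelihood adjusted p = 0.325).

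Rpl3, Rpl8 and Rpl6 were among the members with the smallest differences. Rpl3, which reaches towards the peptidyl transferase centre, had 147 and 192 CPM in somata and 334 and 336 CPM in processes of control cultures, and 156 and 195 CPM in somata and 354 and 352 CPM in processes of PTX cultures. This was a log2 fold change of 0.98 (SE 0.150, quasi-likelihood adjusted p = 0.000376) in control cultures, 1.97-fold. Rpl8, its neighbour at that centre, had 24.4 and 27.5 CPM in somata against 57.2 and 47.3 CPM in processes in control cultures and a log2 fold change of 1.01 (SE 0.143, quasi-likelihood adjusted p = 0.000218). Rpl6 had 20.8 and 25.1 CPM in somata against 51.3 and 43.9 CPM in processes in control cultures, with 1.05 (SE 0.135, quasi-likelihood adjusted p = 0.000114), and in PTX cultures its difference was 0.77 (SE 0.135, quasi-likelihood adjusted p = 0.000806). Scaled by library size alone all 3 were lower in processes, at -0.83, -0.81 and -0.77 in control cultures, though above the median of all genes at that scaling.

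**Figure D2:**
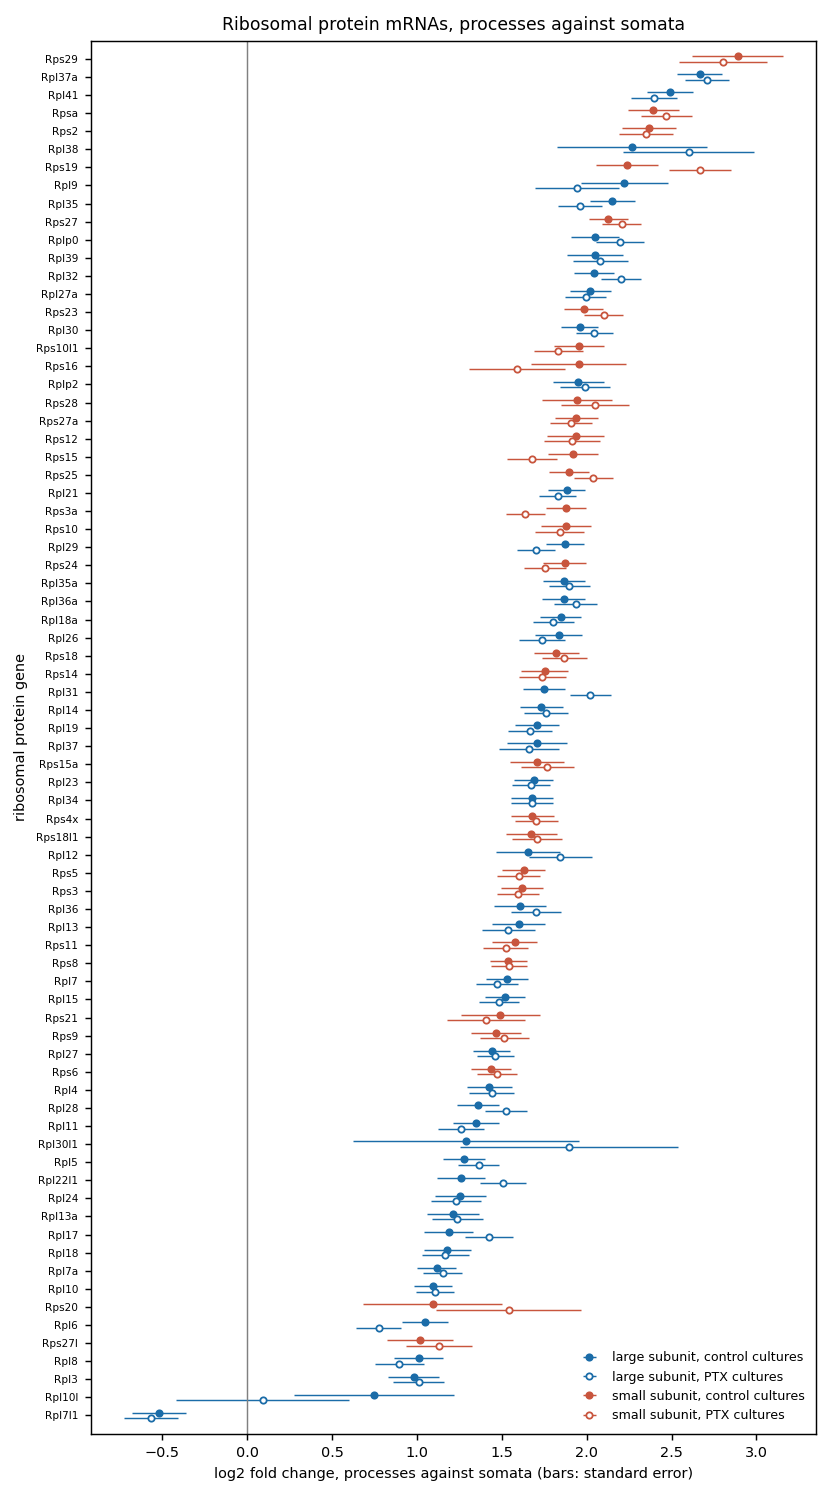
Log2 fold changes of the 77 tested ribosomal protein genes, 1 of them not shown, processes against somata, with TMM scaling, ordered by the value in control cultures; filled points are control and open points PTX cultures, and bars are standard errors. Values run from -0.52 for Rpl7l1 to 2.89 for Rps29, and with library size scaling the whole set lies lower, at a median of -0.10.

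The stalk of the large subunit, which recruits the elongation factors, is built from Rplp0, Rplp1, Rplp2 and Rpl12, of which Rplp1 was not analysed here. Rplp0 had 237 and 279 CPM in somata and 1138 and 996 CPM in processes of control cultures, and 231 and 265 CPM in somata and 1190.2 and 1081 CPM in processes of PTX cultures. It was 4.14-fold higher in processes of control cultures, a log2 fold change of 2.05 (SE 0.143, quasi-likelihood adjusted p = 1.84e-06). Rplp2 had 8.33 and 9.99 CPM in the somata control libraries, 8.85 and 10.2 in somata PTX, 37.6 and 33.4 in processes control and 41.1 and 34.8 in processes PTX, without overlap between the compartments. Its log2 fold change was 1.95 (SE 0.150, quasi-likelihood adjusted p = 3.30e-06). Rpl12, which anchors the stalk beside Rplp0, had 4.38 and 3.92 CPM in somata against 12.3 and 13.9 CPM in processes in control cultures and a log2 fold change of 1.65 (SE 0.189, quasi-likelihood adjusted p = 4.86e-05).

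Rpl5 and Rpl11 join the 5S ribosomal RNA before it enters the large subunit, and outside the ribosome they bind the p53 regulator Mdm2. Both stood among the lower differences of the set. Rpl5 had 69.2 and 81.3 CPM in somata against 182 and 183 CPM in processes in control cultures, a log2 fold change of 1.28 (SE 0.122, quasi-likelihood adjusted p = 1.33e-05), and Rpl11 50.7 and 58.7 CPM in somata against 148 and 129.9 CPM in processes, a log2 fold change of 1.35 (SE 0.134, quasi-likelihood adjusted p = 1.81e-05). Rps6, the substrate of S6 kinase whose phosphorylation is widely used as a readout of mTOR activity in neurons, had 74.2 and 84.3 CPM in somata and 219.9 and 209 CPM in processes of control cultures, and 80.0 and 84.2 CPM in somata and 244 and 212 CPM in processes of PTX cultures. It was higher in processes by 1.44 (SE 0.119, quasi-likelihood adjusted p = 4.97e-06) on the log2 scale. Rps27a, which is made as a fusion with ubiquitin, had 82.5 and 96.3 CPM in somata against 350.4 and 336 CPM in processes in control cultures and a log2 fold change of 1.94 (SE 0.126, quasi-likelihood adjusted p = 1.29e-06). Scaled by library size alone, Rpl5, Rpl11 and Rps6 lay below somata, at -0.53, -0.47 and -0.37 in control cultures. Not called at that scaling were Rpl12, at -0.15 (quasi-likelihood adjusted p = 0.504), and Rplp0, Rplp2 and Rps27a, at 0.23, 0.14 and 0.13 (quasi-likelihood adjusted p = 0.109, 0.416 and 0.361).

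Several members are paralogs of a core ribosomal protein gene, marked by an l after the number. Rpl7l1, found on assembling large subunits rather than on mature ribosomes, was the single member below somata, with 16.1 and 18.3 CPM in somata and 10.3 and 13.7 CPM in processes of control cultures, and 18.1 and 18.8 CPM in somata and 11.7 and 13.1 CPM in processes of PTX cultures. All 4 process libraries lay below all 4 somata libraries, and the log2 fold change was -0.52 (SE 0.161, quasi-likelihood adjusted p = 0.0214) in control and -0.57 (SE 0.159, quasi-likelihood adjusted p = 0.0123) in PTX cultures. Without replicate 2 of somata control the control value was -0.43 with a quasi-likelihood adjusted p of 0.115, and without replicate 1 of processes control -0.32 with a quasi-likelihood adjusted p of 0.166. In PTX cultures the value was -0.54 (quasi-likelihood adjusted p = 0.0517) without replicate 2 of somata PTX and -0.49 (quasi-likelihood adjusted p = 0.0725) without replicate 1 of processes PTX. Its parent Rpl7 had 94.9 and 106 CPM in somata against 278 and 304 CPM in processes in control cultures, higher in processes by 1.53 (SE 0.123, quasi-likelihood adjusted p = 4.24e-06) on the log2 scale.

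A ratio of reads within a library does not depend on the scaling, so each of the 6 paralogs tested together with its parent was also set against it in this way. Rpl7l1 reads were 16.9% and 17.2% of the Rpl7 reads in somata control and 19.0% and 16.9% in somata PTX, against 3.70% and 4.51% in processes control and 4.07% and 4.60% in processes PTX. The mean log2 ratio was -2.52 ± 0.0816 (SD, n = 4) over the somata libraries and -4.57 ± 0.145 (SD, n = 4) over the process libraries, a difference of -2.05 (exact two-sided permutation test over libraries, p = 0.0286, the smallest that 4 against 4 libraries allow, and 0.0857 after adjustment over the 6 pairs). For Rps27l, a small subunit paralog known as a p53 target, reads were 64.3% and 76.6% of the Rps27 reads in somata control and 63.3% and 86.8% in somata PTX. In processes they were 29.6% and 36.0% in control and 30.8% and 40.2% in PTX cultures. The compartments did not overlap, and the log2 ratio differed by -1.09 (exact two-sided permutation test, p = 0.0286, adjusted over the 6 pairs 0.0857). No pair passed the 0.05 threshold after adjustment, which with 6 pairs this number of libraries reaches only if at least 4 of them give the smallest p. The permutation pooled control and PTX cultures and took all 8 libraries as independent, although same-numbered libraries deviated together. These p-values and SDs may therefore overstate the evidence.

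On its own, Rps27l was still higher in processes, with 11.7 and 15.9 CPM in somata against 24.8 and 31.2 CPM in processes in control cultures and a log2 fold change of 1.02 (SE 0.195, quasi-likelihood adjusted p = 0.00163), beside 2.13 (SE 0.115, quasi-likelihood adjusted p = 6.73e-07) for Rps27. Scaled by library size alone, Rps27l turned to -0.78 in control cultures. Rpl7 and Rps18l1, at -0.27 and -0.14, and Rps10l1, Rps10 and Rps18, at 0.15, 0.07 and 0.01, were not called at that scaling. The other 4 pairs overlapped between compartments. Rps10l1 and Rps10 had log2 fold changes of 1.96 and 1.88, and their log2 ratio differed by 0.04 (exact permutation p = 0.6). Rps18l1 and Rps18 had 1.67 and 1.82, with a difference of -0.15 in the ratio (exact permutation p = 0.0571). Taken in same-numbered pairs of libraries, the ratio was lower in processes in 4 of 4 pairs for Rps18l1 and for Rpl10l (for the latter at 0.953% and 0.952% in replicate 2 of PTX cultures), in 3 of 4 for Rpl30l1 and in 1 of 4 for Rps10l1. The paired differences were not tested. Over the 8 libraries, Rps10l1 had 284% to 339% of the reads of Rps10, and Rps18l1 had 64.5% to 79.6% of those of Rps18. Counts were assigned by gene symbol, and the sequences of paralogs and parents were not compared here. Where copies are much alike, the origin of their reads is uncertain, and the same holds for the many pseudogenes of this family.

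Rpl10l and Rpl30l1 were measured from few reads. Rpl10l, a paralog of Rpl10 best known from the testis, had 21 and 19 reads in somata control, 31 and 11 in somata PTX, 12 and 12 in processes control and 7 and 9 in processes PTX, and its log2 fold change of 0.74 (SE 0.472, quasi-likelihood adjusted p = 0.216) in control cultures did not pass the test. Its parent Rpl10 was higher in processes by 1.09 (SE 0.114, quasi-likelihood adjusted p = 2.45e-05). Rpl30l1 had 39 and 21 reads in somata control, 46 and 10 in somata PTX, 36 and 17 in processes control and 53 and 20 in processes PTX, more in replicate 1 than in replicate 2 of every condition. Its log2 fold change was 1.29 (SE 0.664, quasi-likelihood adjusted p = 0.133) in control and 1.90 (SE 0.642, quasi-likelihood adjusted p = 0.0302) in PTX cultures, beside 1.96 and 2.04 for Rpl30. Fitted with replicate as a block, the control value was 1.26 with a quasi-likelihood adjusted p of 0.00204, and it was also called with no filter (quasi-likelihood adjusted p = 0.00145) and with only the 4 libraries compared (quasi-likelihood adjusted p = 0.035). Its call in PTX cultures was lost without replicate 2 of somata PTX (1.27, quasi-likelihood adjusted p = 0.118) or replicate 1 of processes PTX (0.91, quasi-likelihood adjusted p = 0.372). Rpl22l1, whose parent Rpl22 was not analysed here, was higher in processes by 1.26 (SE 0.142, quasi-likelihood adjusted p = 4.44e-05) in control cultures. Scaled by library size alone, Rpl10 and Rpl22l1 were at -0.72 and -0.55 there, while Rpl30l1, at -0.53, and Rpl30, at 0.15, were not called. Rpl10l was at -1.05 (quasi-likelihood adjusted p = 0.0477), but it passed the filter through somata libraries alone, which favours a higher value there.

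The weakest call among the higher members was that of Rps20, with 24 and 19 reads in somata control, 16 and 14 in somata PTX, 22 and 11 in processes control and 13 and 19 in processes PTX. Its log2 fold change was 1.09 (SE 0.408, quasi-likelihood adjusted p = 0.0473) in control cultures, and it lost that call in 7 of the 8 fits without a single library, with 0.55 and a quasi-likelihood adjusted p of 0.416 without replicate 1 of processes control. In control cultures it was not called by DESeq2 (adjusted p = 0.128), with upper quartile factors (quasi-likelihood adjusted p = 0.0888) or with only the 4 libraries compared (quasi-likelihood adjusted p = 0.0689) either. In PTX cultures its log2 fold change was 1.54 (SE 0.430, quasi-likelihood adjusted p = 0.0124), and that call was lost without replicate 1 of somata PTX (quasi-likelihood adjusted p = 0.0581) or replicate 2 of processes PTX (quasi-likelihood adjusted p = 0.0911). Scaled by library size alone it turned to -0.72 in control and -0.27 in PTX cultures, neither of them called. It was singled out after its values were seen. Apart from Rpl10a and Rpl23a, which had no reads, the members that were not tested had few reads too. Rpl39l, a paralog of Rpl39, had 10 and 11 reads in somata control, 8 and 5 in somata PTX, 2 and 1 in processes control and 5 and 3 in processes PTX, and Rpl3l, the muscle form of Rpl3, had 3 and 6 reads in somata control, 9 and 5 in somata PTX, 1 and 0 in processes control and 4 and 1 in processes PTX. Rps4y2, a relative of Rps4x, had 8 and 6 reads in somata control, 10 and 9 in somata PTX, 2 and 1 in processes control and 5 and 1 in processes PTX. Rps19l2 had 5 and 9 reads in somata control, 4 and 6 in somata PTX, 21 and 8 in processes control and 18 and 20 in processes PTX, and its parent Rps19 was among the higher differences with 2.24 (SE 0.182, quasi-likelihood adjusted p = 4.51e-06) in control cultures. Rpl39 itself was higher in processes by 2.05 (SE 0.163, quasi-likelihood adjusted p = 4.11e-06), and by library size alone it was at 0.24 and not called.

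The members did not move by a single common factor. Their log2 fold changes had a standard deviation of 0.48 in control cultures, against a median standard error of 0.135, with quartiles at 1.44 and 1.94. The order was similar in PTX cultures, with a Pearson's r of 0.94 and a Spearman's rho of 0.919 across the 77 members and 0.937 and 0.931 without the 7 tested paralogs. These are descriptions across genes, which are not independent, and all tested genes gave 0.903 and 0.902. The median was 1.67 for the 46 large subunit and 1.88 for the 31 small subunit members in control cultures, and 1.67 and 1.75 in PTX cultures. Per 100 reads of large subunit members the libraries held 60.0 and 60.5 reads of small subunit members in somata control, 58.3 and 59.6 in somata PTX, 68.1 and 66.6 in processes control and 65.6 and 64.7 in processes PTX. All process libraries were thus above all somata libraries in this ratio, which is free of the scaling. A ratio of summed reads is weighted towards abundant members such as Rpsa and Rps2, which also had large differences. In each same-numbered pair the ratio was lower in the PTX than in the control library of the same compartment, which was not tested.

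The start of the message, which the choice of genes did not use, was examined in promoter sequences from RefSeq (build GRCr8), in which 63 of the 83 members were matched by symbol. A C followed by at least 4 pyrimidines (C or T) on the gene's strand, beginning within 5 bases of the annotated start, was present in 36 of them (57.1%) and in 17.0% of all 27457 promoters. Exactly at the annotated start it was present in 20 members (31.7%), against 2.63% of all promoters. Among tested genes the shares were 56.7% of 60 members and 17.2% of 9922 genes. The 34 tested members with such a run had a median log2 fold change of 1.84 between processes and somata of control cultures, and the 26 without it 1.52. The group without it holds the paralogs Rpl7l1, Rps27l, Rpl22l1 and Rpl30l1, at -0.52, 1.02, 1.26 and 1.29. The difference between the groups was not tested. For other tested genes the medians were -0.01 with the run and -0.08 without. An annotated start can lie some bases from the start in these cells, and a match describes letters only.

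Printed here are windows from 20 bases before to 10 bases from the annotated start, in lower case, with a run that begins within 5 bases of the start in capitals as far as the window shows it. They are given for members with large differences that carry the run at the start, for high members without it, and for 3 paralogs.
Rpl37a: accgcgcatgcccgttgcgtCTCTTCCTCT
Rpl9: gtgatgacgaaggacgttctCTCTTTgccc
Rpl35: ggccccgccccttcctctttCTCTCgaacc
Rps27: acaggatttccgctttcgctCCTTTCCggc
Rplp0: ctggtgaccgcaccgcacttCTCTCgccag
Rpl41: gaaggggcggctcggaagtgacgacaccaa
Rpsa: cccgtcctttccgcgctaccctggaacggg
Rps2: gcctccctcttctttttcttcgggaaaaca
Rps27l: ttatagtttattcatttgtcattatttgtg
Rpl7l1: gtggaagctgcagatgcattgtgggaagcc
Rpl22l1: tgagcgctccgtggatatccggttccgagt
Rpl37a lies at chr9:81748071-81748100 (plus strand), Rpl9 at chr14:43247570-43247599 (plus strand), Rpl35 at chr3:43165912-43165941 (minus strand), Rps27 at chr2:177964597-177964626 (minus strand) and Rplp0 at chr12:46718381-46718410 (minus strand). Of the windows without a run beginning within 5 bases of the start, Rpl41 lies at chr7:1563488-1563517 (minus strand), Rpsa at chr8:128728859-128728888 (plus strand), Rps2 at chr10:14251828-14251857 (plus strand), Rps27l at chr8:76443638-76443667 (plus strand), Rpl7l1 at chr9:21695698-21695727 (plus strand) and Rpl22l1 at chr2:113683176-113683205 (plus strand). Each window spans the promoter and the first bases of the transcribed gene. Among the 6 members with the highest log2 fold change, Rpl37a had a run beginning within 5 bases of the start, while Rpl41, Rpsa, Rps2 and Rpl38 did not and Rps29 had no entry. Rpsa, Rps2 and Rpl38 had a C with at least 4 pyrimidines after it further upstream in the window, which was not counted.

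Genes that share features with the members were looked at from fixed lists. Of 4 relatives outside the naming rule, all were higher in processes of control and of PTX cultures. Fau, a fusion of a ubiquitin-like protein with a small subunit protein, had a log2 fold change of 1.74 (SE 0.122, quasi-likelihood adjusted p = 1.84e-06). Rack1, a scaffold on the small subunit, had 1.16 and Rpl36al 0.81 in control cultures. Of 15 tested messages of other proteins with TOP motifs, 14 were higher in processes in each treatment, against 25.8% of all tested genes in control and 25.7% in PTX cultures, with a median of 1.25 in control and 0.86 in PTX cultures. Both medians are the values of the elongation factor Eef2. Taken gene by gene, the median difference of the PTX from the control value was -0.09, and no gene of the list was called for it. Among them were Tpt1 with 2.25 (SE 0.119, quasi-likelihood adjusted p = 6.73e-07), the poly(A)-binding protein Pabpc1 with 2.24 (SE 0.110, quasi-likelihood adjusted p = 5.13e-07) and the elongation factor subunit Eef1b2 with 2.02 (SE 0.132, quasi-likelihood adjusted p = 1.31e-06). Eif3l, a subunit of an initiation factor, had 0.10 (SE 0.129, quasi-likelihood adjusted p = 0.536) and did not pass. A run within 5 bases of the start was present in 5 of the 13 of these genes with a promoter entry (38.5%, against 17.2% of tested genes), and exactly at the start in 0 of them (against 2.72%).

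Of 37 tested factors that assemble ribosomes in the nucleolus and cytoplasm, 4 were higher and 6 lower in processes of control cultures, against 25.8% and 21.9% of all tested genes, and 6 were higher and 7 lower in PTX cultures, against 25.7% and 24%. Their median was -0.16 in control and 0.02 in PTX cultures, against -0.05 for all tested genes in both. The difference from all genes was not tested. Higher in control cultures were Sbds, which acts on the late large subunit, with 1.58 (SE 0.218, quasi-likelihood adjusted p = 0.000187), nucleolin (Ncl) with 1.51, Brix1 with 1.48 and Ubtf with 0.57. Nop56, a core protein of the nucleolar particles that methylate ribosomal RNA, was lower, at -0.74 (SE 0.117, quasi-likelihood adjusted p = 0.000486). Among 17 tested genes that control the translation of ribosomal protein messages, 7 were higher and 3 lower in each treatment, beside the same shares of all genes, with a median of 0.33 in control and 0.26 in PTX cultures. Tsc2, an upstream inhibitor of mTOR, had the highest value with 2.86 (SE 0.132, quasi-likelihood adjusted p = 4.48e-07), Larp1 had 0.38 (SE 0.111, quasi-likelihood adjusted p = 0.0172) and the S6 kinase genes Rps6kb1 and Rps6kb2 had 0.43 and -1.18 (SE 0.244, quasi-likelihood adjusted p = 0.00247). The mTOR gene itself had 0.03 and did not pass. These counts move with the scaling, and by library size alone the relatives had 0 higher and 2 lower, the other TOP messages 2 and 9, the assembly factors 0 and 34 and the genes of translational control 1 and 16 in control cultures.

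Markers of cell types were compared between the compartments too. The 10 astrocyte markers summed to 4319 and 4827 CPM in somata control, 3343 and 4549 in somata PTX, 15494 and 14161 in processes control and 11856 and 13457 in processes PTX, and 6 were higher and 2 lower in processes of control cultures, against 25.8% and 21.9% of all tested genes, and 7 higher and 0 lower in PTX cultures, against 25.7% and 24%. The same shares stand beside the marker counts below. The most abundant was Gfap, with a mean of 1685 CPM in somata control and 10250 CPM in processes control. The 11 neuron markers summed to 2391 and 2146, 2294 and 2077, 6486 and 5880, and 5282 and 4546 CPM in the same order, with 4 higher and 5 lower in processes of control and 3 higher and 5 lower in PTX cultures, and were led by the dendritic message Map2, with means of 936 and 4609 CPM in somata and processes control. The 10 oligodendrocyte markers summed to between 312 and 543 CPM in somata and between 516 and 702 CPM in processes, led by Olig1, with 1 higher and 1 lower in control and 3 higher and 1 lower in PTX cultures. Of the microglial markers, 9 were analysed and none passed the filter, with a sum of at most 2.70 CPM led by Csf1r and no reads of Cx3cr1 in processes. The endothelial and fibroblast markers, led by Col3a1, summed to between 31.2 and 128 CPM, with 0 higher and 1 lower of 7 tested in control and 0 higher and 3 lower in PTX cultures, and Cldn5 had no reads in any library. The 5 markers of dividing cells summed to between 105 and 177 CPM in somata and between 147 and 290 CPM in processes. Of them 2 were higher and 1 lower in processes of control cultures, and 3 higher and 0 lower in PTX cultures. Of the nuclear RNAs, Snhg11 was analysed and was lower in processes, at -1.09 (SE 0.206, quasi-likelihood adjusted p = 0.00148). By library size alone 1 astrocyte marker was higher and 7 were lower, and 2 neuron markers were higher and 9 lower. The part of other cell types in the difference between compartments was not tested.

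The second question was whether PTX changed these messages. None of the 77 tested members was called in somata, raised (2.09% of all tested genes) or lowered (1.5%), in edgeR's quasi-likelihood test. None had an unadjusted p under 0.05 there, against 2229 of 14309 tested genes. In processes none was raised (1.64% of all tested genes) or lowered (2.1%). An unadjusted p under 0.05 was found there for 1 member, against 2369 of 14309 tested genes. The likelihood ratio test and DESeq2 gave 0 calls as well in both compartments. With replicate as a block, 1031 of all tested genes were raised and 971 lowered in somata (14% called) and 730 raised and 871 lowered in processes (11.2% called), while 0 members were called in somata and 1 in processes. The median log2 fold change of the members was 0.04 in somata and 0.03 in processes, with -0.01 for all tested genes in both.

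The confidence intervals show how large a change the fit without the replicate block leaves room for. They include the spread between replicate numbers, which that block would take out. The 95% interval lay within a log2 fold change of -0.5 to 0.5, which is 1.41-fold, for 65 of 77 members in somata and for 62 in processes, and within -1 to 1 for 74 and 73 members. The median interval reached 0.292 to either side in somata and 0.293 in processes. The widest intervals were those of members with few reads, such as Rpl30l1, Rpl10l, Rps20 and Rpl38. Both PTX libraries lay above both control libraries for 10 members in somata and 16 in processes, against 24% and 20.1% of tested genes, and below them for 6 and 3 members, against 25% and 22.3%. In the medians of same-numbered libraries the small rise belonged to replicate 1, with 0.09 in somata and 0.08 in processes, while in replicate 2 only 37 and 35 of the 77 members lay above 0, against 55 and 60 in replicate 1.

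**Figure D3:**
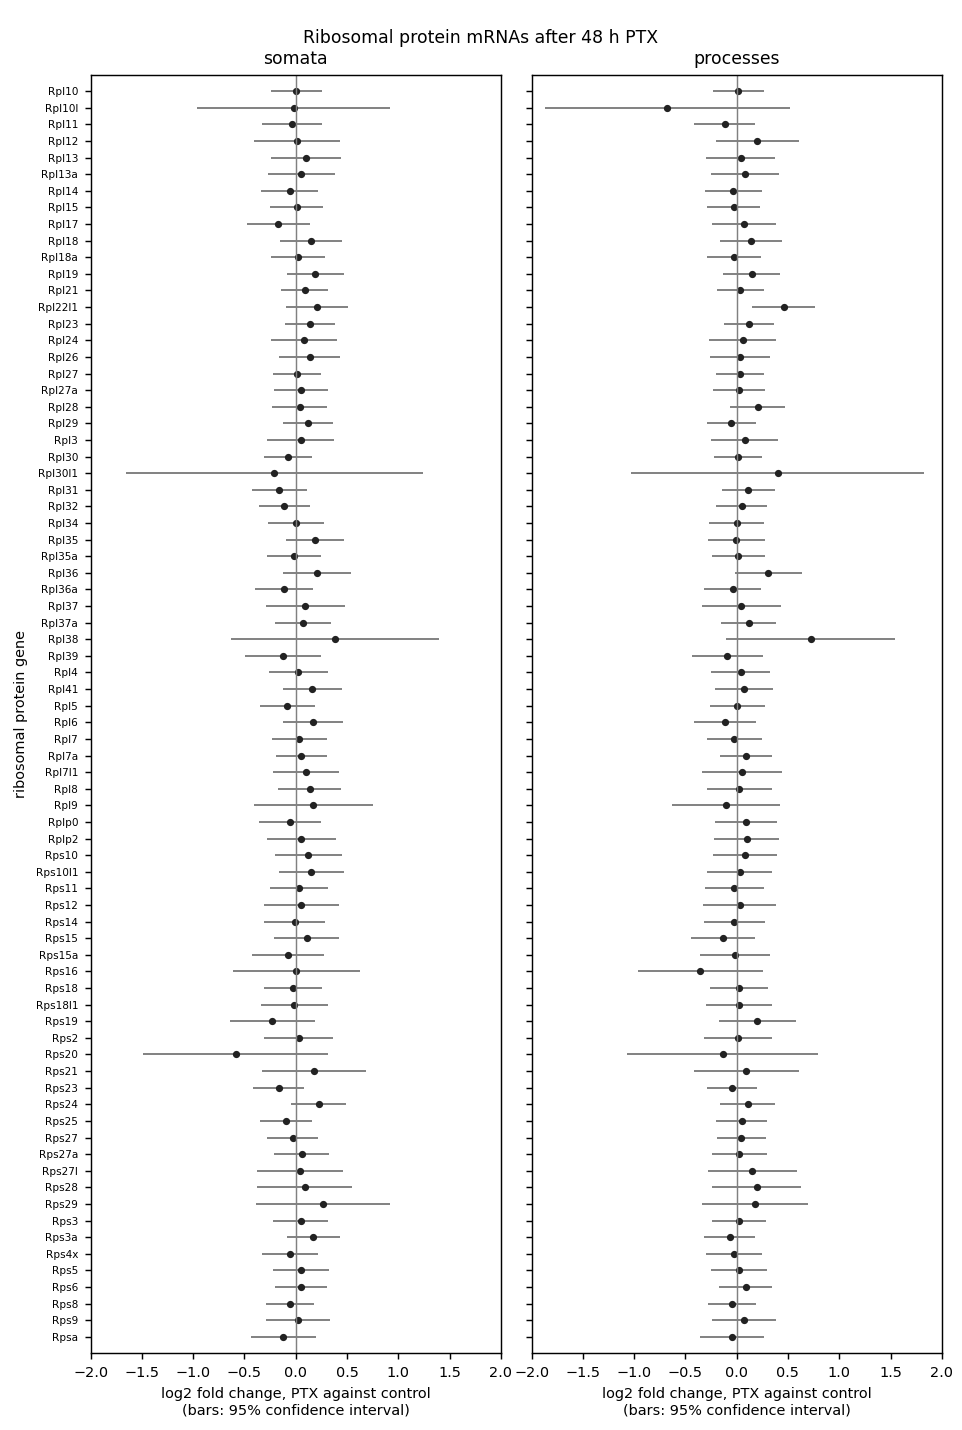
Log2 fold changes of the 77 tested members, 1 of them not shown, after 48 h PTX, in somata (left) and processes (right), in alphabetical order; points are fitted values and bars 95% confidence intervals. The medians of all 77 are 0.04 and 0.03, and in processes the interval of Rpl22l1 lies above 0.

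Rpl22l1, a paralog that can take the place of Rpl22 in the large subunit and also binds RNA outside the ribosome, had the smallest p in processes. It was measured at 10.7 and 9.87 CPM in the somata control libraries, 11.4 and 12.4 in somata PTX, 23.2 and 26.0 in processes control and 30.4 and 36.9 in processes PTX. Both PTX libraries were above both control libraries in each compartment, with 24.6 ± 1.95 CPM (SD, n = 2) in processes control and 33.7 ± 4.58 CPM (SD, n = 2) in processes PTX. The log2 fold change in processes was 0.46 (SE 0.139, unadjusted p = 0.00767, quasi-likelihood adjusted p = 0.112), which did not pass. Fitted with replicate as a block it was 0.46 with a quasi-likelihood adjusted p of 0.018, the only member called for PTX in that fit. In somata its log2 fold change was 0.21 (SE 0.138, quasi-likelihood adjusted p = 0.564), and the difference between the compartments was 0.25 (SE 0.196, quasi-likelihood adjusted p = 1).

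Next in order of p in processes was Rpl36, a large subunit protein, which had 21.9 and 21.1 CPM in control and 29.3 and 24.0 CPM in PTX processes, a log2 fold change of 0.31 (SE 0.147, quasi-likelihood adjusted p = 0.33). Both PTX libraries lay above both control libraries. In somata the smallest p values were those of Rps24, Rpl22l1 and Rpl19. Rps24 had 44.8 and 51.6 CPM in control and 52.9 and 59.7 CPM in PTX somata, a log2 fold change of 0.22 (SE 0.121, quasi-likelihood adjusted p = 0.436), and Rpl19 had 45.7 and 56.7 CPM in control and 54.5 and 62.4 CPM in PTX somata, with 0.19 (SE 0.127, quasi-likelihood adjusted p = 0.567). The groups overlapped for Rpl19 and not for Rps24, and none of these differences passed the test.

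The S6 kinase substrate and the stalk base were not called either. Rps6 had PTX log2 fold changes of 0.05 (SE 0.116, quasi-likelihood adjusted p = 0.91) in somata and 0.09 (SE 0.116, quasi-likelihood adjusted p = 0.777) in processes, and Rplp0 had -0.06 and 0.09. Rps16, named after its values were seen, was low in replicate 1 of both PTX conditions, with 12.8 and 16.4 CPM in the somata control libraries, 10.7 and 18.8 in somata PTX, 55.1 and 57.8 in processes control and 31.9 and 56.0 in processes PTX, and had the standard error 0.275 in processes, above the median of 0.133 for the members. No gene of the lists of relatives, of other TOP messages, of assembly factors or of translational control was called for PTX in either compartment. Of 5 markers of dividing cells 4 were raised in processes, against 1.64% of all tested genes, such as Top2a with 54.3 and 63.5 CPM in control and 123 and 115 CPM in PTX libraries and a log2 fold change of 1.01 (SE 0.144, quasi-likelihood adjusted p = 0.00472), and 1 was raised in somata, against 2.09%. Of the 7 endothelial and fibroblast markers tested, 1 was raised in somata, Kdr with 1.41 (SE 0.242, quasi-likelihood adjusted p = 0.0102), and 0 were called in processes. Of the neuron markers 2 were raised and 2 lowered in each compartment, of the astrocyte markers 1 was lowered in somata, and of the oligodendrocyte markers 0 were called. The median PTX log2 fold changes in somata and processes were 0.58 and 1.01 for markers of dividing cells, 0.78 and 0.71 for endothelial and fibroblast markers, -0.16 and -0.12 for neuron markers, -0.15 and -0.11 for astrocyte markers and -0.22 and 0.01 for oligodendrocyte markers. Their part in the PTX values was not tested.

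The third question was whether the PTX effect differed between compartments. The interaction, which sets the PTX change of processes against that of somata, was called for 0 members and for 0% of all tested genes in the quasi-likelihood test. No member had an unadjusted p under 0.05, against 572 of 14309 tested genes, and DESeq2 and the likelihood ratio test called 0 members as well. With the replicate block 0 members and 15 of all tested genes were called. The median of the members was 0.01. It changed sign with single libraries left out, from -0.09 without replicate 2 of somata control to 0.12 without replicate 1. The smallest p was that of Rps19, with 4.93 and 5.99 CPM in the somata control libraries, 4.24 and 5.12 in somata PTX, 29.6 and 22.1 in processes control and 31.0 and 28.4 in processes PTX. It was lower with PTX in both somata replicates and higher in both process replicates, and the interaction was 0.43 (SE 0.255, unadjusted p = 0.123, quasi-likelihood adjusted p = 1). Rpl31 followed with an interaction of 0.27 (unadjusted p = 0.135, quasi-likelihood adjusted p = 1) and Rps3a with -0.24 (unadjusted p = 0.165, quasi-likelihood adjusted p = 1). Counting same-numbered libraries as pairs, 10 of the 77 members moved one way in both pairs of somata and the other way in both pairs of processes, against 10.5% of all tested genes.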

How the data were processed

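Per the authors, reads were trimmed (Trimmomatic), mapped to Rnor_6.0 by Subread subjunc, where the submitters' processing notes list STAR, and counted by featureCounts, and counts were added up by gene symbol. The deposited counts are whole numbers per symbol without normalization. The deposited tables of the authors' PTX comparisons hold fold changes, average levels and p-values, which were not used, and a column of gene class, which was. Groups and replicate numbers were taken from the labels.

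Genes over 20 reads in 2 or more libraries were fitted with edgeR 4.0.16 in R 4.3.3 (TMM, glmQLFit and glmQLFTest, all 8 libraries, 1 coefficient per condition), with Benjamini-Hochberg adjustment over the 14309 tested genes and a threshold of 0.05. Median reads per tested member were 839 to 1000 per library. The SE of a log2 value is its size over the square root of the F statistic. DESeq2 1.42.0 was an alternative, beside other tests, scalings, filters, designs and single libraries left out. Named are the 6 highest and 6 lowest members between compartments in control cultures, those fixed by role, paralogs with their parents, and the 3 members with the smallest p where none was called. One named member and 1 listed relative are not reported here. A planned choice by level per coding length was not made, because coding lengths were not used here. The read ratios of paralogs and parents, also in same-numbered pairs, counts of libraries without overlap or moving in opposite directions, the ratio of subunits, correlations and the search of message starts were added after seeing the data, and Rps16 and Rps20 were singled out then. The members and lists were chosen with earlier results of these data known.

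Same-numbered libraries deviated together: replicate 2 minus replicate 1 correlated across tested genes with r between 0.274 and 0.540 in all 6 pairs of conditions, so the labels' numbers were taken to pair libraries. The common dispersion corresponded to a coefficient of variation of 11.5%, and of 6.77% with the replicate block. Replicates differed by more than counting noise, with a chi-square per degree of freedom of 9.11 to 21.1.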

Additional observations from a re-analysis of the deposited data

Results flagged for a closer look

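For 6 of the 37 named members, PTX moved the level one way in both same-numbered pairs of somata libraries and the other way in both pairs of process libraries. The interaction was 0.61 for Rpl30l1, 0.27 for Rpl31, -0.28 for Rpl6, 0.15 for Rplp0, 0.43 for Rps19 and -0.24 for Rps3a on the log2 scale. In the quasi-likelihood test of the interaction none passed, each with an adjusted p of 1. Some of the moves were close to 0 on the log2 scale, such as -0.00299 in a somata pair and 0.00986 in a process pair for Rpl30l1 and -0.00959 in a process pair for Rps3a. Of the 77 tested members 10 moved in opposite directions in this way, and of all tested genes 10.5%.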

How the results depend on the processing

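Counts of called members were recomputed under 17 alternatives. Scaling by library size changed the compartment result. It gave 8 members higher and 19 lower in processes of control cultures and 9 higher and 20 lower in PTX cultures, where the median of all genes lies at -1.86 and -1.87. The median of the members was -0.10 and -0.13 there, so members that are not named lay below 0 too. Among named members, log2 fold changes called with TMM that turned negative were, in control and PTX cultures, -0.83 and -0.82 for Rpl3, -0.81 and -0.94 for Rpl8, -0.78 and -0.69 for Rps27l, -0.77 and -1.06 for Rpl6, -0.53 and -0.47 for Rpl5, -0.47 and -0.57 for Rpl11, -0.37 and -0.36 for Rps6, -0.55 and -0.31 for Rpl22l1, -0.14 and -0.13 for Rps18l1, -0.72 and -0.73 for Rpl10, and -0.27 and -0.35 for Rpl7, and for Rpl12 -0.15 in control cultures. Among these, the values of Rps18l1 in both treatments, of Rpl7 and Rpl12 in control and of Rpl22l1 in PTX cultures were not called. Named members that stayed above 0 but lost their call were Rpl38, Rplp2, Rps27a, Rps10l1, Rps10, Rps18, Rpl30 and Rpl39 in both treatments, Rplp0 in control and Rpl12 and Rpl30l1 in PTX cultures. Rps20, described after its values were seen, turned to -0.72 and -0.27. Of the values not called with TMM, that of Rpl30l1 turned to -0.53 in control cultures. That of Rpl10l turned to -1.05 (quasi-likelihood adjusted p = 0.0477) in control and -1.72 (quasi-likelihood adjusted p = 0.00553) in PTX cultures, both called lower. Rpl10l passed the filter through somata libraries alone, which favours a higher value there, so no lower level in processes is read from these calls. With upper quartile factors the median of all genes was -0.25 and -0.23, and that of the members 1.51 and 1.53. With the genes of the mitochondrial genome removed before TMM scaling, the median of the members was 1.71 in control and 1.71 in PTX cultures. No higher member lost its call there. With single libraries left out, where the remaining library of a condition is assumed to vary like the others, 73 to 74 members were higher in control and 74 to 75 in PTX cultures, and 0 to 1 were lower in each, the cause of which was not tested. For PTX, 0 members were called in either compartment and direction with any library left out. With the replicate block, which the pairing of libraries allows, 14% of all tested genes were called for PTX in somata and 11.2% in processes, against 3.59% and 3.74% without it, 1 member was raised in processes (Rpl22l1) and Rpl30l1 was called higher in processes of control cultures. The block changed no other call of a named member. The medians for PTX changed sign with single libraries, from -0.06 without replicate 1 of somata control to 0.12 without replicate 2 in somata, and from -0.06 without replicate 1 of processes PTX to 0.11 without replicate 2 in processes. Of the values compared for named members and medians, 1206 kept direction and side of the threshold or stayed within the replicate spread, 25 called values lost the call in the same direction, 4 gained one in the same direction and 23 called values changed sign as given above. The other 26, medians and values of Rpl10l and Rpl30l1 that were not called, moved, some of them across 0. The low reads of Rpl38, Rpl10l, Rpl30l1 and Rps20 limit what can be said of them.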

Other observations

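With 2 libraries per condition and no replicate block, some 95% intervals of the PTX effect reached past 1.41-fold in at least one direction. This held for 12 of 77 members in somata and 15 in processes, which leaves room for a change of that size in these members. Levels were measured as shares of sequenced RNA in a whole compartment, and the number of messages per cell was not measured. Symbols stand for annotated genes, and reads from pseudogenes of this family could not be told apart from those of their parents. Translation of the messages was not analysed here.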
